A study of Mus musculus with 4 samples.

Results

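The cells described here were lymphocytes of the mouse submandibular gland that carried CD3 transcripts together with transcripts of natural killer (NK) receptors, and neither Cd8b1 nor Cd163l1. They were chosen by a gate on raw unique molecular identifiers (UMIs, the transcripts counted in a cell) of droplet single-cell RNA sequencing, so the genes of the gate are described here and not tested. A cell needed 500 UMIs, 300 genes and no more than 15% mitochondrial UMIs to be kept. It passed the gate with at least 2 UMIs of Cd3d, Cd3e and Cd3g together, at least 1 UMI of Ncr1, Klrb1c and Klra1 together, and no UMI of Cd8b1, Cd163l1 or the endothelial gene Cdh5. The gate held 1995 cells of the 39843 that passed the quality filters: 1176 after ligation, with 156, 261 and 402 from mock 1, mock 2 and mock 3. The gate's working name was innate-like T cells with NK receptors. The data went against that name for most of the cells, as shown next, so they are called gated cells below.

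All animals were female C57BL6/J mice with no transgene named in the labels. In the ligated group (1 library) the main ducts of the gland were closed with a metal clip, and in the mock group (3 libraries) the ducts were found during surgery but not clipped. Glands were taken 14 days later, the sublingual gland along with the submandibular one, and cells bearing EpCAM (epithelium) or Ter119 (red cells) and dead cells were depleted with magnetic beads in every group. The comparison asks how the gland's stroma and immune cells differ after 14 days of duct obstruction. Separate or pooled animals behind each library are not told apart in the labels.

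T cells recognise antigen through a T cell receptor, made of alpha and beta chains or of gamma and delta chains. It reaches the surface only with CD3 chains, whose genes include Cd3g, Cd3d and Cd3e. NK cells and group 1 innate lymphoid cells (ILC1) have no such receptor and read the health of other cells through activating and inhibitory receptors, among them NKp46 (Ncr1), NK1.1 (Klrb1c) and the Ly49 family (Klra genes), several of which signal through the adaptors Fcer1g and Tyrobp. Innate-like T cells carry both kinds of receptor. The mouse submandibular gland is known for a large resident population of NK and ILC1 cells.

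The libraries differed in more than surgery. They held 80187555 UMIs (ligated) and 29897488, 47182114 and 56932041 UMIs (mock 1, 2 and 3), at a median of 4742.5 UMIs per kept cell in the ligated library and 5466, 4188 and 3576 in the mock libraries. The matrices carry header version 6.0.1 of the Cell Ranger software (ligated library, mock 1) or 7.0.0 (mock 2, mock 3), so for the surgery comparison values of the ligated library over mock 1 alone are given beside the log2 fold changes. Mock 2 and mock 3 were the most alike of the 6 pairs, yet their summed counts in gated cells differed beyond sampling noise (chi-square of 2.99 per degree of freedom over 10674 genes, against 9.25 for the ligated library and mock 1), so they were kept apart. By the same measure mock 1 lay farther from mock 2 (12.7) and mock 3 (12.6) than from the ligated library. Pairs of libraries shared 11 to 56 kept cell barcodes, at most 0.605% of the smaller library. Transcripts of lymphocytes were also found in more endothelial cells of the ligated library: of cells with Cdh5, 57.7% had a UMI of the chemokine Ccl5 in the ligated library, against 7.86, 4.19 and 5.08% in mock 1, 2 and 3. P-values below measure the spread between these libraries, which may be technical.

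Most gated cells met the CD3 rule through Cd3g alone. Cd3g only, with no UMI of Cd3d or Cd3e, was the pattern of 54.9% of gated cells in the ligated library and 67.1 ± 1.46% in the mock libraries (SD, n = 3). Cd3e was found in 37.7% of gated cells in the ligated library, against 23.1, 24.9 and 25.1% in mock 1, 2 and 3. The 3 genes sit together on mouse chromosome 9 (GRCm38): Cd3g at 44969572 to 44980431 on the minus strand, Cd3d at 44981786 to 44987339 on the plus strand and Cd3e at 44998740 to 45009627 on the minus strand. The starts of Cd3g and Cd3d are 1355 bases apart. The promoter windows of these genes, and of Fcer1g on chromosome 1, are shown because the text turns on their unequal detection. Each runs from 250 bases before the start to 50 bases after it, 5′ to 3′ on the gene's strand, from RefSeq on GRCm38.p6, with the E-box CACCTG (or CAGGTG, its other strand) in capitals.
Cd3g, chr9:44980382-44980681, minus strand: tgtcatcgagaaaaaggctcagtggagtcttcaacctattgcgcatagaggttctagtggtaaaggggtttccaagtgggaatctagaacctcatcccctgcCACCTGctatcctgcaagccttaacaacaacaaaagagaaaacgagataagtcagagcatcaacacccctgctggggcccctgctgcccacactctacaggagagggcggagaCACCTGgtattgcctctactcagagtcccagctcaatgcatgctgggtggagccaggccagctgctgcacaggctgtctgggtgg
Cd3d, chr9:44981536-44981835, plus strand: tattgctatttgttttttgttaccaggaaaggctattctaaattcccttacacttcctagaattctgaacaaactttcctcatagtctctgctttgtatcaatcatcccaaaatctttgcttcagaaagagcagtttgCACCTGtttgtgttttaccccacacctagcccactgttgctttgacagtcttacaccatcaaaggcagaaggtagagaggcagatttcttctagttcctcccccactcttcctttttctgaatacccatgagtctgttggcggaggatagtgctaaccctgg
Cd3e, chr9:45009562-45009861, minus strand: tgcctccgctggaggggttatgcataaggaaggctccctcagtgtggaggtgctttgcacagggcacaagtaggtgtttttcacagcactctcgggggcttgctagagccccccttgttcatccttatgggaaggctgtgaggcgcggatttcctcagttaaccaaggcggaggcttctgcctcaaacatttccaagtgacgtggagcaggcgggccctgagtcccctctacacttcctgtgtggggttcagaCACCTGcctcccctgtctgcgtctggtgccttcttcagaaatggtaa
Fcer1g, chr1:171234300-171234599, minus strand: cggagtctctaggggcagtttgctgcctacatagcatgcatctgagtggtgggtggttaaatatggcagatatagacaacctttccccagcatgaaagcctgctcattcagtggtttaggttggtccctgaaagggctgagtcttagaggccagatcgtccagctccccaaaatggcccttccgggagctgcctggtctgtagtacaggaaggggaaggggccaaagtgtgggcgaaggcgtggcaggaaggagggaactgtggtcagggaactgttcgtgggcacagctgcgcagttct
The E-box, a motif that E proteins of lymphocytes are known to bind, matched at 2 places in the Cd3g window, at 1 each in those of Cd3d and Cd3e and at none in that of Fcer1g, and 20.2% of all 32851 promoter windows held it. The core AGGAAG, known for ETS factors and searched on both strands, matched at 0, 2, 2 and 2 places in Cd3g, Cd3d, Cd3e and Fcer1g, and 35.4% of all windows held it. These matches describe the letters of these windows only.

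Cells with and without Cd3e were described apart, a division chosen after the values were seen. No test was made between them, and fits limited to either kind are given below only as alternatives. Cd3d followed Cd3e: it had a UMI in 89.8% of gated cells with Cd3e in the ligated library and in 97.2, 98.5 and 98.0% in mock 1, 2 and 3, against 11.9% (ligated) and 10.8, 10.7 and 12.3% (mock) of gated cells without Cd3e. Trac, the constant part of the alpha chain, had a UMI in 55.3% of cells with Cd3e in the ligated library and 66.7, 47.7 and 58.4% in the mock libraries. Without Cd3e, Trac was found in 5.87% of cells in the ligated library and in 5.00, 1.53 and 6.31% in the mock libraries. In NK or ILC1 cells with no CD3 UMI at all (at least 2 UMIs of Ncr1, Klrb1c and Klra1), Trac was found in 3.92% of cells in the ligated library and 5.00, 4.07 and 3.69% in the mock libraries. Trbc2, a beta chain constant gene that can be transcribed without a rearranged receptor, separated them less: it was found in 92.8% (ligated) and 100, 98.5 and 98.0% (mock) of cells with Cd3e, in 47.9% (ligated) and 50.0, 51.0 and 41.9% (mock) of those without, and in 38.6% (ligated) and 34.2, 37.7 and 40.9% (mock) of NK or ILC1 cells. The gate thus held a minority with Cd3g, Cd3d and Cd3e and often Trac or a gamma chain, and a majority with Cd3g in which Trac and gamma chains were rare.

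Of the 6 genes given as markers of innate-like T cells, Cd3e itself made this division. The others were each found in a larger share of cells with Cd3e than without it, in every library. Trgv2, a variable gene of the gamma chain, was found in 41.8% of cells with Cd3e in the ligated library and in 55.6, 50.8 and 44.6% in the mock libraries, but in at most 1.99% of cells without Cd3e in any library. Tcrg-C2, a gamma constant gene, was found in 33.2% (ligated) and 44.4, 55.4 and 37.6% (mock) of cells with Cd3e, and in at most 1.33% without it. Ikzf2, which encodes the transcription factor Helios, was found in 52.6% (ligated) and 61.1, 61.5 and 57.4% (mock) of cells with Cd3e, against 10.2% and 10.8, 9.18 and 11.3% without it. All 3 were found in far fewer cells without Cd3e, in every library. Cd160, a receptor of NK cells and innate-like T cells, was found in 50.8% (ligated) and 66.7, 73.8 and 61.4% (mock) of cells with Cd3e, and in 17.2% (ligated) and 30.8, 32.7 and 27.2% (mock) without it. Klra1, the inhibitory receptor Ly49A and itself a gene of the gate, was found in 66.8% (ligated) and 66.7, 72.3 and 78.2% (mock) with Cd3e, and in 25.5% (ligated) and 14.2, 14.8 and 17.6% (mock) without it. Reads of Tcrg-C2 are uncertain, since 18.1% of the 60-base stretches of its transcripts also occur in another gene. The gate left out CD3 cells with Cd163l1 (29 cells ligated and 7, 35 and 39 mock). Of those, 62.1% (ligated) and 85.7, 85.7 and 84.6% (mock) had Ikzf2, and 44.8% (ligated) and 42.9, 48.6 and 56.4% (mock) had Trgv2. Tcrg-C2 was found there in 41.4% (ligated) and 14.3, 34.3 and 43.6% (mock), but Cd160 in at most 14.3% and Klra1 in at most 6.90%.

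Both kinds of gated cell carried the adaptors of NK receptors. Fcer1g, the signalling chain of several NK and Fc receptors, was found in 97.7% of gated cells with Cd3e in the ligated library and 97.2, 100 and 99.0% in the mock libraries, and in at least 99.7% of those without Cd3e. T cells with Cd8b1, the CD8 beta chain of classical killer T cells, had Fcer1g in 46.1% of cells in the ligated library, against 21.4, 13.3 and 12.3% in the mock libraries. In cells with Cdh5, which should lack it, Fcer1g was found in 38.7% (ligated) and 8.90, 6.72 and 8.36% (mock). Tyrobp, the DAP12 adaptor, was found in 85.6% (ligated) and 80.6, 81.5 and 86.1% (mock) of gated cells with Cd3e, and in at least 98.0% without it. Eomes, a T-box factor of NK and killer T cells, was rarer with Cd3e, in 17.6% (ligated) and 16.7, 7.69 and 10.9% (mock) of cells, against 28.9% (ligated) and 36.7, 29.1 and 24.3% (mock) without Cd3e. Zbtb16, which encodes PLZF, the factor of invariant NKT cells, was found in at most 7.69% of gated cells with Cd3e in any library. Median depth was 5829 UMIs with Cd3e and 5739 without it in the ligated library. In mock 1, 2 and 3 the medians were 6133.5, 7518 and 6237 UMIs with Cd3e and 6897, 7647 and 6109 without it. The part of depth in the missing Cd3e was not tested.

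**Figure D1:**
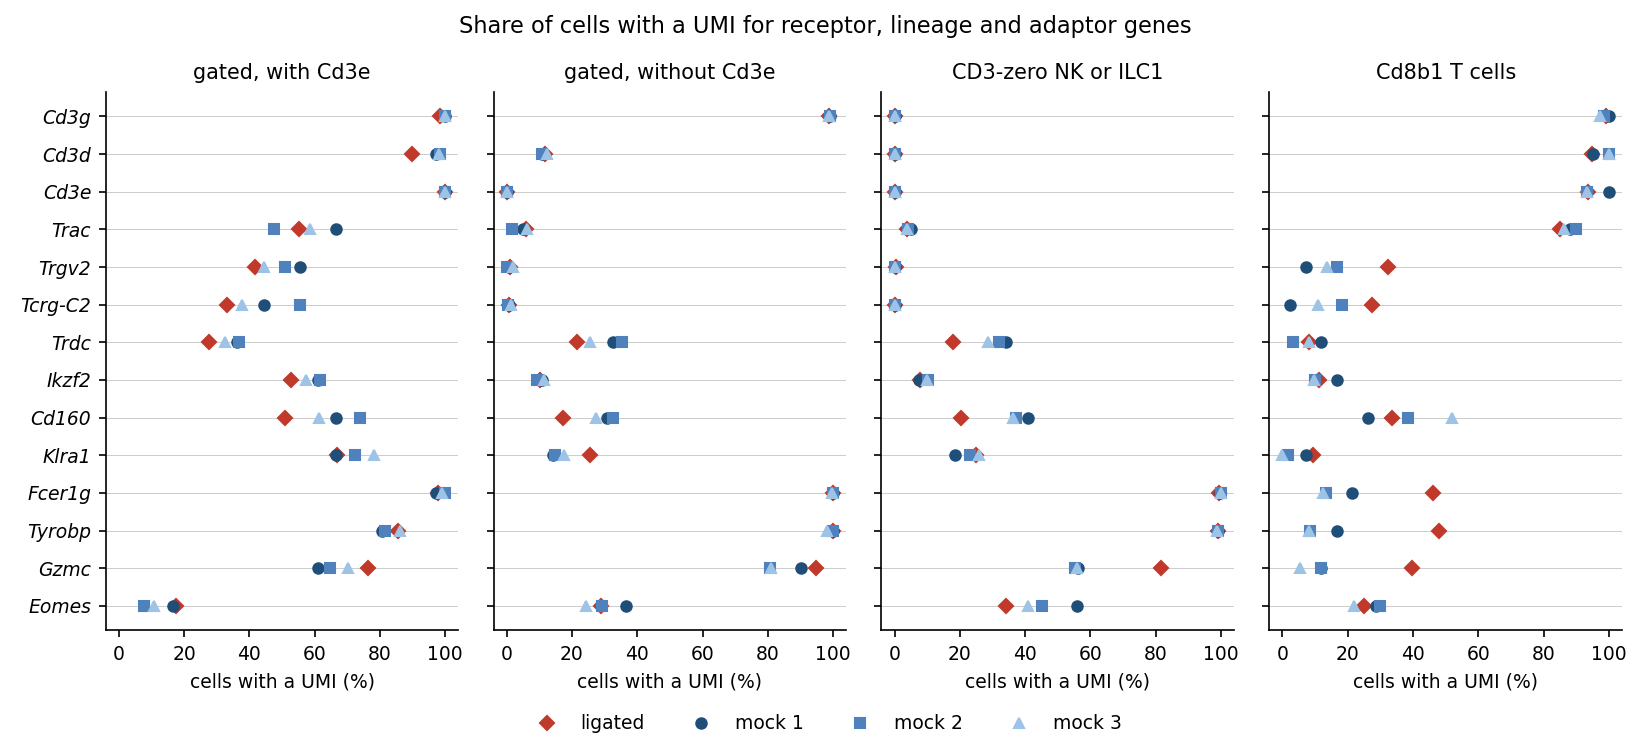
Share of cells with at least 1 UMI (x axis, percent) of each gene (rows) in gated cells with Cd3e, gated cells without Cd3e, NK or ILC1 cells with no CD3 UMI, and T cells with Cd8b1; diamonds are the ligated library and the other symbols the 3 mock libraries. Cd3d, Trac, Trgv2, Tcrg-C2 and Ikzf2 lie farther right in cells with Cd3e than in the next pair of panels, while Fcer1g and Tyrobp are above 80% in the first 3 panels.

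A larger share of cells passed the gate in the ligated library. Gated cells were 8.84% of kept cells there (exact 95% interval 8.36 to 9.33), against 3.40% (2.89 to 3.97), 2.82% (2.49 to 3.18) and 3.17% (2.87 to 3.48) in mock 1, 2 and 3. The ligated share was 2.83 times the mock mean of 3.13 ± 0.291% (SD, n = 3) and 2.60 times that of mock 1. Intervals cover counting error only, and with 1 library against 3 an exact permutation test cannot go below p = 0.25, so no test was made. Transcripts of the gate genes were also found in more cells that should lack them: of cells with Cdh5, 14.2% had a UMI of Cd3d, Cd3e or Cd3g in the ligated library, against 2.48, 1.07 and 1.64% in the mock libraries, and 16.9% had one of Ncr1, Klrb1c or Klra1, against 4.52, 2.42 and 3.58%. The part of this background in the share was not tested. With every cell thinned to 1500 UMIs, which left 11913 cells (ligated) and 4238, 7964 and 10889 cells (mock), the shares were 4.24% in the ligated library and 1.63 ± 0.208% in the mock libraries. Endothelial cells with Cdh5 took 36.5% of kept cells in the ligated library and 60.7, 58.6 and 57.2% in the mock libraries, and a change in any class moves the shares of all others.

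The ratio of shares was higher for gated cells with a Cd3e UMI than for those without. Gated cells with Cd3e were 3.33% of kept cells in the ligated library (443 cells) and 0.761 ± 0.051% in the mock libraries (36, 65 and 101 cells), a ratio of 4.38. Gated cells without Cd3e were 5.51% in the ligated library and 2.37 ± 0.248% in the mock libraries, a ratio of 2.33. Cd3e was found in 6.22% (ligated) and 0.969, 0.425 and 0.647% (mock) of cells with Cdh5, and doublet scores removed 21.7% (ligated) and 0, 6.15 and 2.97% (mock) of the gated cells with Cd3e. The part of either in these ratios was not tested. The 2 classes set beside them lay on either side: T cells with Cd8b1 were 5.83% against 0.713 ± 0.179%, a ratio of 8.18, and NK or ILC1 cells 15.2% against 9.29 ± 1.41%, a ratio of 1.63. CD3 cells, counted as all cells with at least 2 CD3 UMIs, included cells with Cdh5. Of these CD3 cells, gated cells were 45.9% in the ligated library, against 54.0, 52.8 and 56.9% in mock 1, 2 and 3. The ligated library was thus highest in the share of all kept cells and lowest in the share of CD3 cells. The caller Scrublet marked 41 gated barcodes as doublets in the ligated library, against 1, 0 and 0 in the mock libraries, and with the highest-scoring barcodes removed, at 0.8% for every 1000 barcodes of a library, the ratio was 2.65. That removal took 151 gated cells in the ligated library, against 2, 13 and 13 in the mock libraries.

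**Figure D2:**
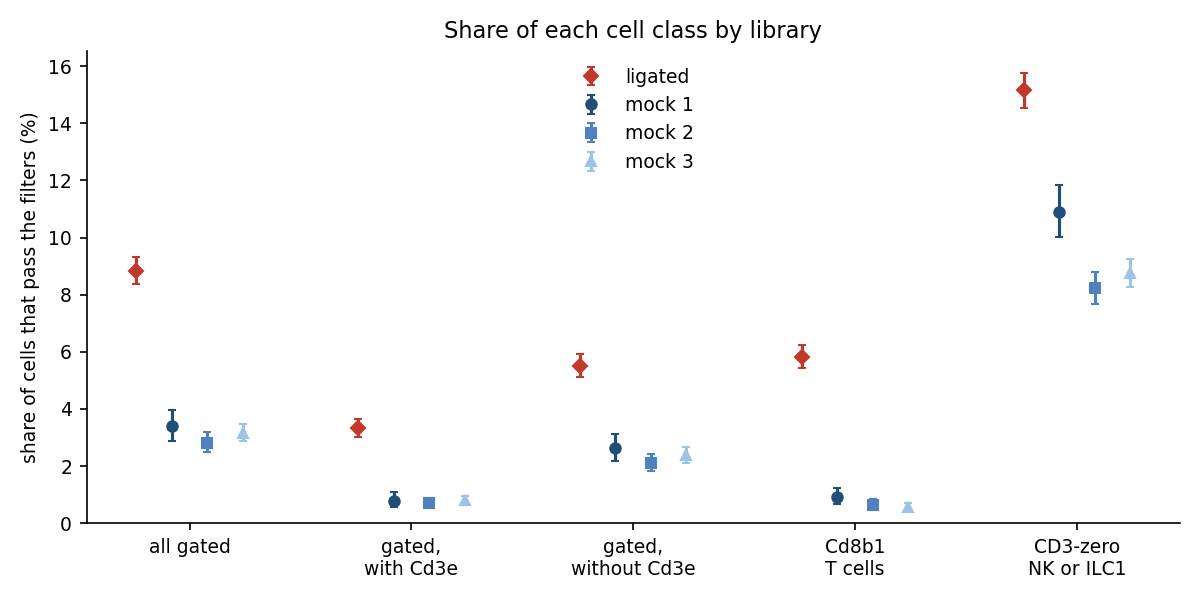
Share of kept cells (y axis, percent) in each library for all gated cells, their parts with and without Cd3e, T cells with Cd8b1 and NK or ILC1 cells with no CD3 UMI; bars are exact 95% binomial intervals, which cover counting error only. The ligated library lies above all 3 mock libraries in each class, at 8.84% against 2.82 to 3.40% for all gated cells.

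A gamma or delta chain transcript, Trdc or Trgv2, was found in 34.9% of gated cells in the ligated library (exact interval 32.1 to 37.7), against 40.4% (32.6 to 48.5), 43.3% (37.2 to 49.5) and 33.6% (29.0 to 38.4) in the mock libraries. The ligated share lay within the mock range, and with the gate applied to thinned cells it was 21.2%, against 24.6, 16.9 and 16.3%. Most of that share was Trdc without Trgv2, in 18.5% of gated cells (ligated) and 26.9, 30.7 and 20.9% (mock). Trdc is no sign of a receptor in these cells by itself: it was found in 18.0% (ligated) and 34.0, 32.1 and 28.6% (mock) of NK or ILC1 cells with no CD3 UMI, and in 21.7% (ligated) and 32.5, 35.2 and 25.6% (mock) of gated cells without Cd3e. In cells with Cdh5 Trdc was found in 3.68% (ligated) and 1.36, 1.03 and 1.18% (mock). Counting Trac or a gamma constant or variable gene in its place gave 39.1% in the ligated library and 31.5 ± 1.26% in the mock libraries, and with Cd3e required as well 31.8 and 22.9 ± 0.776%.

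Other features of the gate also differed between the groups. Trac was found in 24.5% of gated cells in the ligated library and 19.2, 13.0 and 19.4% in the mock libraries, and Trgv2 in 16.3% against 13.5, 12.6 and 12.7%. After thinning to 1500 UMIs Trac was found in 10.8% (ligated) and 8.33, 6.90 and 7.00% (mock), and Trgv2 in 7.00% (ligated) and 7.69, 3.83 and 5.00% (mock), so that only Trac stayed above the mock range. In cells with Cdh5 Trac was found in 4.94% (ligated) and 1.22, 0.591 and 0.826% (mock), and Trgv2 in 1.91% (ligated) and 0.251, 0.148 and 0.206% (mock), and the part of this background was not tested. Ncr1, which the gate used, was found in 72.6% (ligated) and 84.0, 88.9 and 87.3% (mock) of gated cells, Klrb1c in 91.3% and 92.9, 90.8 and 92.3%, and Klra1 in 41.1% and 26.3, 29.1 and 32.8%. Coreceptors were scarce: Cd8a was found in 5.27% (ligated) and 3.21, 3.07 and 3.73% (mock), and Cd4 in 2.13% and 0.641, 0.766 and 1.24%. Cells with both Trac and a gamma chain gene were 11.5% in the ligated library and 9.89 ± 1.04% in the mock libraries.

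The thresholds of the gate cut through continuous ranges. Gated cells with exactly 2 CD3 UMIs numbered 177 (ligated) and 29, 24 and 32 (mock), of which 9.60% had Cd3e in the ligated library and none in the mock libraries. Just outside, 438 (ligated) and 35, 66 and 99 (mock) cells had 1 CD3 UMI, with Cd3e in 12.1% and 2.86, 1.52 and 0% of them. On the NK side, 80 (ligated) and 7, 7 and 10 (mock) gated cells had exactly 1 receptor UMI. Just outside, 251 (ligated) and 42, 88 and 103 (mock) CD3 cells had none, of which 82.1% and 69.0, 72.7 and 74.8% had Cd3e and 42.2% and 9.52, 5.68 and 9.71% had Fcer1g.

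Counts were then summed per library and class and compared with edgeR's quasi-likelihood test, with a term for the library and Benjamini-Hochberg adjustment over all genes tested. Genes of the gates were left out, and levels are given as CPM (counts scaled to a common library total by the fit), with fold changes on the log2 scale. Genes whose transcripts go with CD3, with NK receptors or with Cd8b1 had a chance to differ by the choice of the cells alone. Against T cells with Cd8b1 (776 cells ligated; 42, 60 and 73 mock), 440 of 9045 genes were higher in gated cells (4.86%) and 496 were lower (5.48%). All 7 tested Ly49 receptors were higher and none was lower, as were 8 of 9 other killer lectin-like receptors. The median of the Ly49 genes was 2.43, against 0.01 over all genes.

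Receptors of NK cells and their adaptors were higher in gated cells than in Cd8b1 T cells, and the choice of cells could by itself give this. Every gated cell had a UMI of Ncr1, Klrb1c or Klra1, against 30.2% (ligated) and 16.7, 13.3 and 9.59% (mock) of Cd8b1 T cells. Klra4 (Ly49D, an activating receptor) had 406 CPM (ligated) and 626, 708 and 728 CPM (mock) in gated cells, against 135 (ligated) and 126, 39.0 and 33.1 CPM (mock) in Cd8b1 T cells. The log2 fold change was 2.75 ± 0.36 (SE, adjusted p = 0.0005, edgeR), higher in 4 of 4 libraries. Klra9 had a fold change of 2.67, Klra3 of 2.72, Klra7 of 2.43 and Klra8 of 2.40, and their reads are uncertain because the family is alike in sequence (11.7% of the 60-base stretches of Klra9 occur in another gene). Klrd1 (CD94), the shared chain of the NKG2 receptors, was 1.39 higher and Klre1, an inhibitory partner receptor, 1.97 higher. Fcer1g was 2.66 ± 0.32 and Tyrobp 2.86 ± 0.38 higher (adjusted p = 0.00029 and 0.00055, edgeR). Their levels in gated cells were 3358 (ligated) and 2836, 3428 and 3489 CPM (mock) for Fcer1g, and 2757 and 2224, 2471 and 2673 CPM for Tyrobp. Clnk, an adaptor of immune receptor signalling, was 2.38 higher, and Cd7, a surface protein of T and NK cells, 2.32 higher.

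Genes of classical T cell identity were lower in gated cells. Of 11 tested receptor genes, 2 were higher and 5 lower, and of 8 coreceptor and helper genes 6 were lower and none higher. Cd8a was among those 6, and the choice of cells kept Cd8b1 out of gated cells and required it in the others. Trac had 78.1 (ligated) and 48.6, 44.4 and 59.4 CPM (mock) in gated cells, against 436 (ligated) and 659, 477 and 517 CPM (mock) in Cd8b1 T cells. That was a fold change of -3.12 ± 0.18 (SE, adjusted p = 1.1e-06, edgeR), lower in 4 of 4 libraries. Trbc2, a beta chain constant gene, fell by 1.65 and Cd247, the zeta chain, by 1.46, while Trdc was 1.33 higher. The gamma constant gene Tcrg-C2 fell by 1.15 (adjusted p = 0.027, edgeR), lower in 3 of 4 libraries. It lost its call by DESeq2, without mock 3 and without the ligated library. Trgv2, with a fold change of -0.87, did not pass. Themis, needed for T cell development in the thymus, fell by 4.77, the scavenger-receptor proteins Cd6 and Cd5 by 4.24 and 3.79, and the costimulatory receptor Cd28 by 2.56. Signalling genes split: 7 of 16 were higher and 7 lower. Those higher included Syk, the kinase used by Fcer1g and Tyrobp (2.13), Txk (1.31) and the adaptor Sh2d1b1 (2.00). Those lower included the T cell adaptor Lat, with a fold change of -1.83.

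Effector genes also divided by kind. Gzmc, a granzyme, had 5224 (ligated) and 3644, 3039 and 3858 CPM (mock) in gated cells, against 1712 (ligated) and 792, 145 and 91.8 CPM (mock) in Cd8b1 T cells, a fold change of 3.13 ± 0.48 (SE, adjusted p = 0.0015, edgeR). Gzmb was 2.24 higher, and Gzmk, a granzyme of memory killer T cells, fell by 6.65 with 2.46 CPM in the ligated library and 0 in the mock libraries. Of 13 cytotoxic genes tested, 6 were higher and 1, Gzmk, was lower. The chemokine Xcl1 was 1.68 higher, whereas Ifng and Tnf fell by 1.11 and 1.25. Ccl5 was high in both classes, at 8287 (ligated) and 6389, 6121 and 7290 CPM (mock) in gated cells and 10424 (ligated) and 7012, 4291 and 6880 CPM (mock) in Cd8b1 T cells, a fold change of 0.03 that did not pass.

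Integrins of tissue lymphocytes were higher and genes of exit and circulation lower. Of 16 residency and egress genes, 5 were higher and 7 lower. Itgae (CD103), an integrin of tissue lymphocytes, had 311 (ligated) and 271, 348 and 311 CPM (mock) in gated cells, against 144 (ligated) and 92.5, 121 and 105 CPM (mock) in Cd8b1 T cells, a fold change of 1.39. Itga1 (CD49a) was 0.74 higher. S1pr1, the receptor for exit from tissue, fell by 2.41, its regulator Klf2 by 2.28 and the lymph node homing receptor Ccr7 by 4.55. Cxcr6, by contrast, was lower in gated cells by 0.77. The transcription factors Bcl11b, Tcf7 and Lef1, known for T cell identity and memory, fell by 2.92, 2.33 and 2.37. Among cytokine receptors Il2rb, the IL-2 and IL-15 receptor beta chain, was 1.44 higher and Il7r fell by 2.24.

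Interferon-stimulated and cell cycle genes were lower in gated cells than in Cd8b1 T cells. Of 25 interferon-stimulated genes 13 were lower and none higher, including Ifi27l2a, with 153 (ligated) and 10.0, 46.6 and 52.8 CPM (mock) against 1256 (ligated) and 352, 525 and 556 CPM (mock). Of 14 cell cycle genes 9 were lower and none higher, Mki67 and Top2a among them at fold changes of -1.76 and -1.59. Of the receptors that restrain or support activation, Pdcd1 (PD-1) fell by 3.95 and Tnfrsf9 (4-1BB) was 1.95 higher. With the gated cells limited to those with Cd3e, Trbc2, Lef1, Il7r, Ifng and Cxcr6 no longer passed, and the count of genes called was 402 in place of 936. Without mock 1 the count was 567, without mock 3 it was 445, and with no term for the library it was 238, with Gzmc, Tyrobp, Il7r, Ifng and Tnf among the calls lost. Mki67 lost its call without the ligated library.

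**Figure D3:**
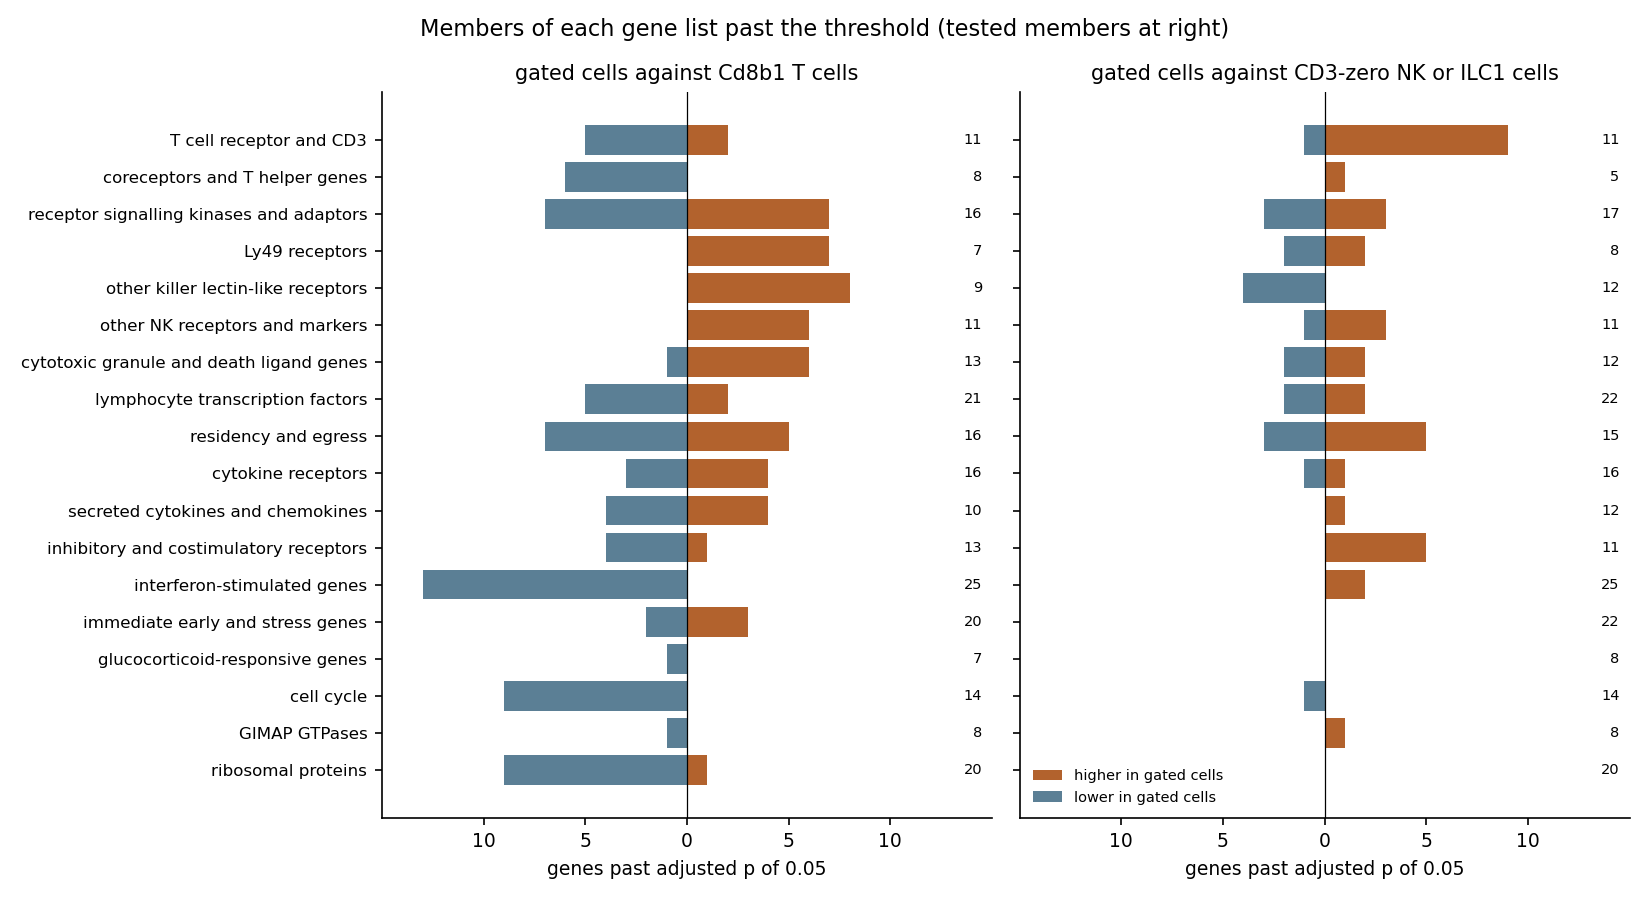
Number of members of each gene list past an adjusted p of 0.05 (x axis, genes), higher in gated cells to the right and lower to the left, against T cells with Cd8b1 (left panel) and NK or ILC1 cells with no CD3 UMI (right panel), with the number tested at the right edge. Ly49 and killer lectin-like receptors lie to the right only in the left panel, and T cell receptor genes to the right in the right panel with 9 of 11.

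Against NK or ILC1 cells with no CD3 UMI (2016 cells ligated; 500, 761 and 1112 mock), gated cells differed in fewer genes. Of 10864 genes tested, 120 were higher (1.1%) and 99 lower (0.911%). Without mock 3 the total was 104 in place of 219, and with no term for the library it was 12. Of 11 T cell receptor genes 9 were higher and 1, the delta variable gene Trdv4, was lower. Trac had 78.9 (ligated) and 50.9, 44.6 and 60.2 CPM (mock) in gated cells, against 6.98 (ligated) and 7.87, 5.84 and 6.23 CPM (mock), a fold change of 3.23 ± 0.12 (SE, adjusted p = 2.6e-08, edgeR). Trbc2 was 1.35 and Trbc1 0.41 higher, and reads of these constant genes are uncertain because 41.5% and 38.2% of their 60-base stretches occur in another gene. Trat1, an adaptor that holds the receptor complex together, was 2.45 higher and Lat 0.44.

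NK receptors and their adaptors differed by small folds between these classes. Fcer1g had 3394 (ligated) and 2973, 3444 and 3540 CPM (mock) in gated cells, against 3565 (ligated) and 2912, 3506 and 3586 CPM (mock) in NK or ILC1 cells, a fold change of -0.02 ± 0.02 that did not pass. Of 12 killer lectin-like receptors 4 were lower and none higher, with Klrk1 (NKG2D) at -0.43 and Klre1 at -0.36. Of 8 Ly49 genes 2 were higher, Klra5 by 1.19 and Klra6 by 0.92, and 2 lower, Klra8 by 0.52 and Klra4 by 0.46. Ly6c2, a surface protein of activated and memory lymphocytes, was 2.36 ± 0.17 higher (adjusted p = 8.3e-06, edgeR), with 154 (ligated) and 109, 87.3 and 80.6 CPM (mock) against 20.6 (ligated) and 26.7, 14.4 and 26.7 CPM (mock). Itga2 (CD49b), a mark of circulating NK cells, fell by 1.22, and Cd226, an activating receptor, was 0.51 higher.

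Cxcr6 and the integrin chains Itgae and Itgb7 were higher than in NK or ILC1 cells, and Ccr2 and Eomes lower. Cxcr6, a chemokine receptor of resident lymphocytes, had 250 (ligated) and 282, 318 and 338 CPM (mock) in gated cells, against 159 (ligated) and 89.4, 146 and 140 CPM (mock), a fold change of 1.15 ± 0.12 (adjusted p = 0.00018, edgeR). Itgae was 0.64, its partner Itgb7 0.53 and Cxcr3 0.48 higher. Ccr2, which draws cells to inflamed tissue, fell by 0.90. Eomes had 48.6 (ligated) and 92.2, 41.0 and 54.0 CPM (mock) against 89.7 (ligated) and 185, 114 and 110 CPM (mock), a fold change of -1.07. Bcl11b was 1.34 higher. Of 15 residency and egress genes tested 5 were higher and 3 lower.

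Effector and checkpoint genes also differed. Gzmc had 5280 (ligated) and 3821, 3053 and 3914 CPM (mock) in gated cells, against 4260 (ligated) and 2122, 2368 and 2345 CPM (mock), a fold change of 0.56. Gzmb was 0.41 higher, while perforin (Prf1) fell by 0.44 and Gzma by 0.39. Ccl5 was 0.53 higher. Of 11 inhibitory and costimulatory receptors 5 were higher and none lower: Cd101 by 1.79, Cd200r1 by 1.08, Nt5e (CD73) by 0.94, Cd200r4 by 0.53 and Entpd1 (CD39) by 0.46. Entpd1 lost its call by DESeq2 and without mock 1, 2 or 3, and Gzma by DESeq2, without mock 1 or 2, and with 2 NK receptor UMIs required. Immediate early genes gave no call among 22, and ribosomal protein genes none among 20. The stromal and glandular genes Apod, Cxcl14 and Igfbp7 fell by 1.72, 1.46 and 0.64, and Klk8 was 0.70 higher. Apod and Cxcl14 lost their calls by DESeq2 and without mock 3, as did Cxcl14 without mock 2 and Lat without mock 3.

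Several of these differences rested on the gated cells with Cd3e. Without those cells, Trac, Trat1, Lat and Bcl11b no longer passed against NK or ILC1 cells, and Ly6c2 (-0.38), Trdc (-0.040) and Il7r (-0.44) turned direction. Cxcr6, Itgae, Itga2, Gzmc, Ccl5, Cd7, Eomes and Ccr2 stayed past the threshold in the same direction, in gated cells whose CD3 UMIs came from Cd3g and Cd3d. With only the gated cells with Cd3e, Gzmc, Cd7, Igfbp7 and Entpd1 no longer passed, and Gzmb and Gzma turned to -0.0921 and 0.20. Median depth was 5758 UMIs in gated cells and 5053.5 in NK or ILC1 cells of the ligated library, and 6692.5, 7635 and 6114.5 against 5955.5, 6983 and 6043.5 in mock 1, 2 and 3. The part of depth in the choice of cells by 2 CD3 UMIs was not tested.

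Between the ligated library and the mock libraries, no gene of the gated cells passed an adjusted p of 0.05 among 10810 tested (0%, edgeR's quasi-likelihood test with 2 residual degrees of freedom). Before adjustment, 925 genes (8.56%) had a p under 0.05, and DESeq2 called 28 higher and 8 lower. Leaving out 1 mock library changed the count, most of all without mock 1, so the count rested on which mock libraries were in the fit. Without mock 1, the ligated library (header version 6.0.1) was set against mock 2 and mock 3 (7.0.0) only. That fit cannot tell surgery from header version. Values are therefore given without saying that a gene changed. The ligated library lay above all 3 mock libraries in 25.4% of genes and below them in 26.2%, and members are read against those shares.

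The 10 genes of smallest p with a higher value in the ligated library included genes known mainly from stroma. Mgp, a matrix protein, had 743 CPM in gated cells of the ligated library, against 0.874, 32.4 and 18.4 CPM in mock 1, 2 and 3. Over all cells of the libraries Mgp stood at 5169 CPM (ligated) and 695, 616 and 601 CPM (mock). Cxcl14, a chemokine of stroma, had 169 CPM (ligated) and 6.99, 22.6 and 14.0 CPM (mock) in gated cells, and 1161 CPM (ligated) and 632, 484 and 432 CPM (mock) over all cells. Both moved the same way in gated cells and in the whole library. Summed markers of fibroblasts stood at 863 CPM (ligated) and 12.7, 67.9 and 396 CPM (mock) in gated cells, with all 4 markers found in every library, and those of macrophages or monocytes at 428 CPM (ligated) and 12.7, 78.5 and 6.87 CPM (mock). The part of this RNA in the differences was not tested.

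Ly6a, Ifitm3 and Igfbp7, by contrast, had lower values over the whole ligated library than over the mock libraries. Ly6a (Sca-1), an interferon-responsive surface protein of lymphocytes and endothelium, had 121 CPM in gated cells of the ligated library, against 28.8, 30.6 and 33.9 CPM in mock 1, 2 and 3. That was a log2 fold change of 1.95 ± 0.22 (SE, adjusted p = 0.214, edgeR) and 2.03 over mock 1 alone. The ligated value was several times each of the mock values, which lay close together, while Ly6a over all cells was lower in the ligated library, at 1163 CPM against 1840, 1818 and 1816 CPM. In NK or ILC1 cells it was 111 CPM (ligated) and 30.9, 26.4 and 32.9 CPM (mock), and in gated cells with Cd3e 158 CPM (ligated) and 57.7, 47.7 and 43.9 CPM (mock). Ifitm3, an antiviral membrane protein, had 160 CPM (ligated) and 33.2, 51.9 and 45.7 CPM (mock) in gated cells, and 1539 CPM (ligated) against 1686, 1964 and 2034 CPM (mock) over all cells. Jun, a stress-responsive transcription factor, had 787 CPM (ligated) and 456, 339 and 349 CPM (mock) in gated cells, and 857 CPM (ligated) and 828, 641 and 549 CPM (mock) over all cells. Igfbp7 had 241 CPM (ligated) and 41.1, 82.1 and 75.9 CPM (mock) in gated cells. Over all cells Igfbp7 had 3799 CPM (ligated) and 5939, 6075 and 5722 CPM (mock). Summed markers of endothelium stood at 164 CPM (ligated) and 116, 143 and 109 CPM (mock) in gated cells, where the gate excluded Cdh5. Over all cells they stood at 3028 CPM (ligated) and 7208, 5940 and 5506 CPM (mock). The part of RNA from other cells in the values of these genes was not tested. Tmem176b, Ctsb, Igfbp7, Cst3 and Klk1 completed the 10, with log2 fold changes of 1.69, 1.60, 1.84, 1.33 and 0.95, and of 1.74, 1.29, 2.52, 1.65 and 0.81 over mock 1.

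Of the 10 genes of smallest p that were lower, Mucl2 and Scgb1b27 are salivary secretory genes. Mucl2 had 212 CPM in gated cells of the ligated library, against 1002, 2581 and 3584 CPM in the mock libraries, and 604 CPM against 1554, 8475 and 12243 CPM over all cells. Rpl35, a ribosomal protein gene, had 919 CPM (ligated) and 1556, 1637 and 1576 CPM (mock). Klra4 had 409 CPM (ligated) and 654, 709 and 736 CPM (mock), a fold change of -0.77, and -0.68 over mock 1, but with only the gated cells with Cd3e it turned to 0.60. Cdh1 (E-cadherin), which resident lymphocytes and epithelium carry, had 85.5 CPM (ligated) and 157, 157 and 139 CPM (mock), and 36.3 CPM (ligated) against 25.1, 31.9 and 32.1 CPM (mock) over all cells. Gm42418, Gm10076, Stt3b, Smurf2 and Chka were the remaining 5.

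**Figure D4:**
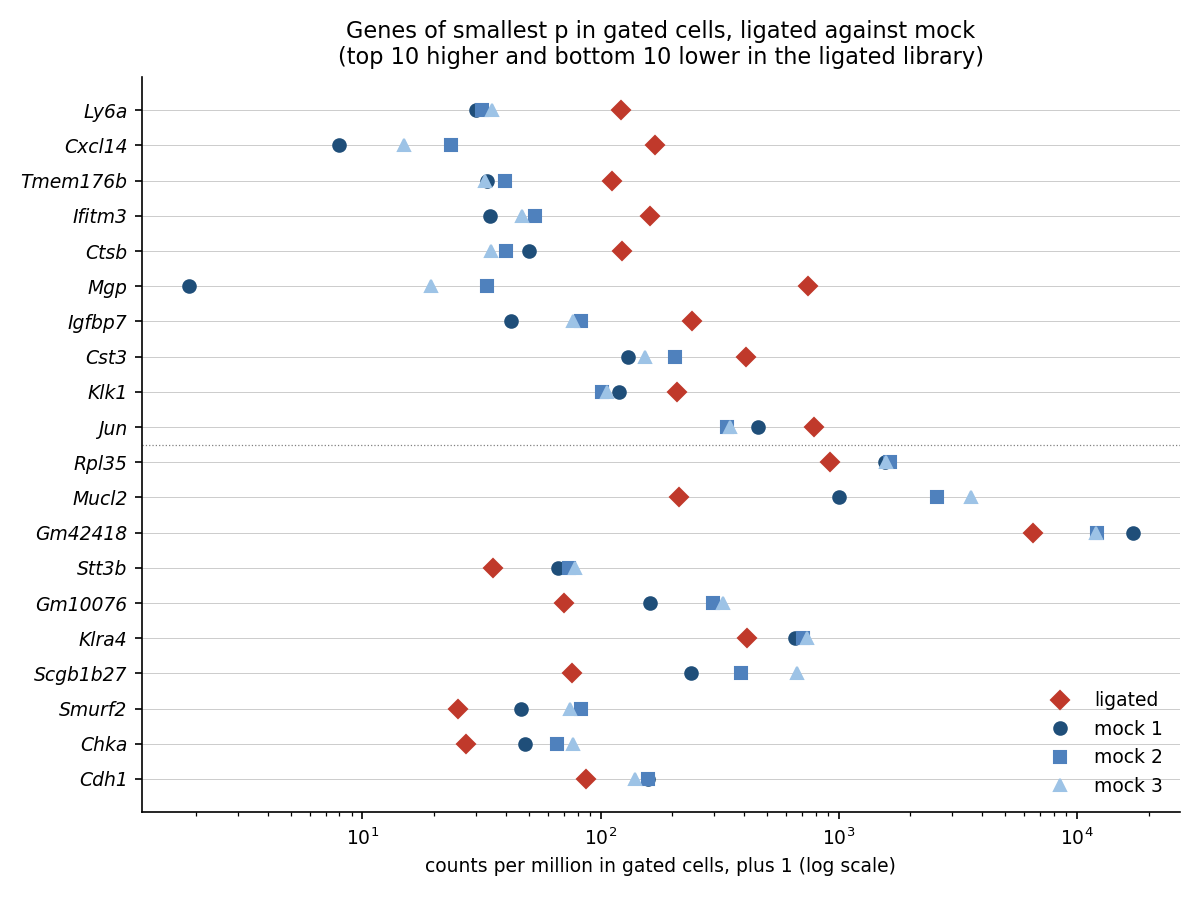
Level in gated cells (x axis, CPM plus 1 on a log scale) of the 10 genes of smallest p higher and the 10 lower in the ligated library (rows, above and below the dotted line); diamonds are the ligated library and the other symbols mock 1, 2 and 3. None passed the adjusted threshold, and the ligated value lies outside the mock range for each, as the choice of genes required.

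Gene lists gave the following counts for the same comparison. Of 22 immediate early and stress genes, 12 lay above all mock libraries and 0 below, with a median of 0.58 against -0.02 over all genes. Fosb had 238 CPM (ligated) and 145, 84.7 and 75.2 CPM (mock), Egr1 68.1 CPM (ligated) and 29.7, 32.4 and 34.6 CPM (mock), and Cd69, an early activation and retention protein, 609 CPM (ligated) and 422, 305 and 304 CPM (mock). Against mock 1, the library with the same header version, the list's median was 0.07. Of 25 interferon-stimulated genes 11 lay above and 2 below, with a median of 0.34, and 0.09 over mock 1. Ifi27l2a had 155 CPM (ligated) and 10.5, 46.6 and 53.4 CPM (mock) and Gbp2 34.2 CPM (ligated) and 21.0, 13.3 and 12.9 CPM (mock).

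Killer lectin-like, Ly49 and cytokine receptors lay more often below the mock libraries than above them. Of 12 killer lectin-like receptors 9 lay below all mock libraries and 1 above, with a median of -0.31, and -0.27 over mock 1. Klre1 had 323 CPM (ligated) and 477, 424 and 472 CPM (mock). Of 9 Ly49 receptors 5 lay below and 0 above, with a median of -0.47, and -0.07 over mock 1. With only the gated cells with Cd3e the Ly49 median was 0.27, and Klra8 and Klre1 turned to 0.27 and 0.18. Of 16 cytokine receptors 9 lay below and 1 above, with a median of -0.26 on both scales, and Tgfbr2, a receptor of TGF-beta, had 79.7 CPM (ligated) and 115, 129 and 144 CPM (mock). Of 9 coreceptor and helper genes 5 lay above and 1 below, with a median of 0.57, and 0.64 over mock 1, but -1.38 with only the gated cells without Cd3e. Of 12 cytotoxic genes 4 lay above and 3 below, with a median of 0.01, and -0.01 over mock 1, and Gzmc had 5267 CPM (ligated) and 3803, 3040 and 3902 CPM (mock).

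Some genes had like values in the ligated library and mock 1, which share a header version, and other values in mock 2 and mock 3. Tox, a transcription factor of innate lymphocytes and exhausted T cells, had 88.6 CPM (ligated) and 96.1 CPM in mock 1, but 640 CPM in each of mock 2 and mock 3. Ikzf3, encoding Aiolos, had 155 CPM (ligated) and 169, 426 and 381 CPM (mock). What set these libraries apart was not tested. With a term for the version, 240 genes were called higher and 96 lower in the ligated library, and that fit rests on the ligated library against mock 1 and on the spread between mock 2 and mock 3.

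Whether the difference between ligated and mock libraries was itself different in gated cells and in NK or ILC1 cells was tested with a class by surgery term. Of 12378 genes 8 passed (0.0646%), each with a higher value of ligated over mock in gated cells. Lgals1 (galectin-1), a lectin of activated lymphocytes and stroma, had 267 CPM (ligated) and 217, 249 and 286 CPM (mock) in gated cells. In NK or ILC1 cells Lgals1 had 224 CPM (ligated) and 432, 401 and 490 CPM (mock). The ligated value lay within the mock range in gated cells and under it in NK or ILC1 cells, and the term was 1.06 ± 0.14 (SE, adjusted p = 0.0091, edgeR). Emb (embigin), an adhesion protein, had 25.4 CPM (ligated) and 27.9, 12.9 and 21.1 CPM (mock) in gated cells, and 18.1 CPM (ligated) and 61.5, 35.2 and 36.4 CPM (mock) in NK or ILC1 cells, a term of 1.56. H2-Ab1, a chain of MHC class II, had 130 CPM (ligated) and 4.37, 9.34 and 2.59 CPM (mock) in gated cells, and 143 CPM (ligated) and 62.7, 39.9 and 35.8 CPM (mock) in NK or ILC1 cells, a term of 2.83. The part of RNA from other cells in the values of H2-Ab1 was not tested. DESeq2 called 1 of the 8, Lgals1, and with possible doublets removed Emb, Lgals1 and H2-Ab1 still passed while Smoc2 turned to -0.21. With only the gated cells without Cd3e, Lgals1 and Emb no longer passed. Leaving out mock 1, 2 or 3 gave 40, 57 and 70 genes in place of 8.

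**Figure D5:**
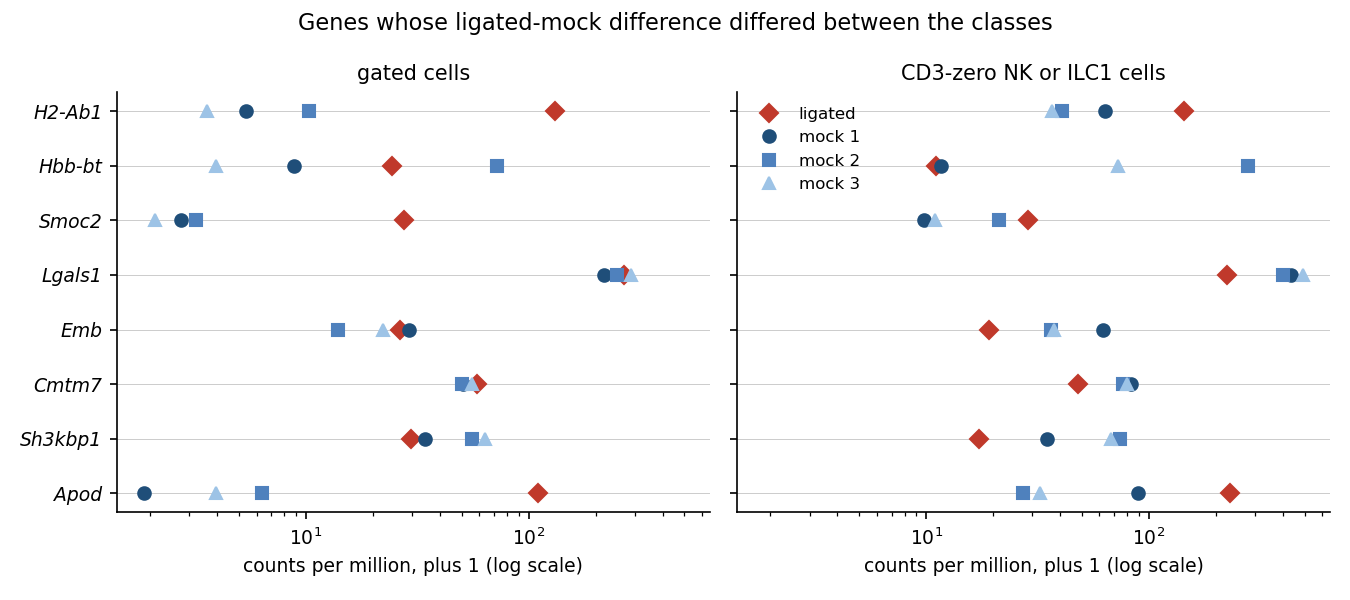
Level (x axis, CPM plus 1 on a log scale) of the 8 genes whose ligated-to-mock difference differed between classes, in gated cells (left) and NK or ILC1 cells with no CD3 UMI (right); diamonds are the ligated library and the other symbols mock 1, 2 and 3. For Lgals1, Emb and Cmtm7 the ligated library lies below the mock libraries in the right panel only.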

How the data were processed

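Gene by cell matrices of raw UMI counts, deposited by the authors for each of the 4 libraries, were used as they stand. Per the file headers they came from Cell Ranger 6.0.1 or 7.0.0, and per the submitters' processing notes from Cell Ranger 7.0.1 with mm10. The sources used here do not say whether introns were counted. Matrices were joined on the 30406 genes in all files and read with Python 3.11.15, pandas 2.3.3 and scanpy 1.11.5, whose Scrublet gave doublet scores. Doublets were kept, and an alternative removed the highest scores at 0.8% of barcodes per 1000 barcodes. Counts were summed per library and class, and tested with edgeR 4.0.16 in R 4.3.3 (quasi-likelihood, TMM, filterByExpr, Benjamini-Hochberg at 0.05). DESeq2 1.42.0, which needs the same counts, was an alternative. With 1 ligated library, that library is assumed to vary like the mock libraries. CPM in the comparisons is TMM-scaled, so a gene's values differ slightly between fits. Shares of cells with a UMI and whole-library levels use unscaled counts. Exact intervals are Clopper-Pearson at 95%. Each fit was tested on simulated data. Genes named are the markers, the members of the gene lists with at least 20 CPM in 1 library, and the 10 most different each way with a mean of at least 50 CPM (for surgery, the 10 of smallest p outside the mock range). Members and lists were chosen with earlier results of these data known. The gated cells of a library and the other classes of that library come from 1 sample, so the library was a term in comparisons between classes. Promoter windows are from RefSeq for GRCm38.p6.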

Additional observations from a re-analysis of the deposited data

Results flagged for a closer look

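For 8 genes the test of the difference itself found that ligated over mock was not the same in gated cells as in NK or ILC1 cells with no CD3 UMI (edgeR's quasi-likelihood test, class by surgery term, adjusted over 12378 genes, log2 scale). Lgals1 had a term of 1.06, Emb of 1.56 and H2-Ab1 of 2.83, with levels as given above. Over all cells H2-Ab1 stood at 414 CPM (ligated) and 190, 380 and 347 CPM (mock). Summed markers of macrophages or monocytes in gated cells stood at 428 CPM (ligated) and 12.7, 78.5 and 6.87 CPM (mock). The part of RNA from other cells in the term of H2-Ab1 was not tested. Cmtm7, a membrane protein of lymphocytes, had a term of 0.90, with 57.5 CPM (ligated) and 49.8, 48.9 and 54.4 CPM (mock) in gated cells and 47.1 CPM (ligated) and 82.5, 75.6 and 78.4 CPM (mock) in NK or ILC1 cells. Sh3kbp1, an adaptor of receptor uptake, had a term of 1.03, with 28.7 CPM (ligated) and 33.2, 54.7 and 62.6 CPM (mock) in gated cells and 16.3 CPM (ligated) and 33.9, 73.2 and 66.5 CPM (mock) in NK or ILC1 cells.

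The other three are genes of red cells and stroma. Hbb-bt, a beta globin, had a term of 3.55, with 23.2 CPM (ligated) and 7.86, 71.2 and 2.96 CPM (mock) in gated cells and 10.0 CPM (ligated) and 10.7, 277 and 71.9 CPM (mock) in NK or ILC1 cells. Apod had a term of 2.45, with 109 CPM (ligated) and 0.873, 5.34 and 2.96 CPM (mock) in gated cells and 229 CPM (ligated) and 88.1, 26.3 and 31.5 CPM (mock) in NK or ILC1 cells. Smoc2 had a term of 2.95, with 26.5 CPM (ligated) and 1.75, 2.22 and 1.11 CPM (mock) in gated cells and 27.7 CPM (ligated) and 8.78, 20.3 and 9.96 CPM (mock) in NK or ILC1 cells. Whole-library levels of Apod were 906 CPM (ligated) and 296, 218 and 205 CPM (mock). The part of RNA from other cells in these terms was not tested.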

How the results depend on the processing

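The ratio of the gated share (2.83) kept its direction with doublets removed, with 3 CD3 UMIs or 2 NK receptor UMIs required, with thinned cells and without each mock library; it was 0.841 with CD3 cells as the denominator, 4.38 for cells with Cd3e and 2.33 for those without, a division chosen after seeing the data. The ratio for Trdc or Trgv2 was 0.892, and 1.10 with thinned cells. For ligated against mock, 0 genes were called, against 36 by DESeq2, 49 with no filter on low counts, 336 with a term for the header version, 32 for cells with Cd3e and 2 to 3997 with 1 mock library left out. Against Cd8b1 T cells 936 were called, against 402 for cells with Cd3e, 238 with no replicate block and 445 to 938 with 1 library left out. Against NK or ILC1 cells 219 were called, against 537 with no filter, 462 for cells with Cd3e, 12 with no replicate block and 104 to 253 with 1 library left out. The class by surgery term gave 8, against 1 by DESeq2, 69 with no filter, 80 for cells with Cd3e, 4 for cells without it and 40 to 70 with 1 mock library left out. Without mock 1, ligated against mock also set header version 6.0.1 against 7.0.0, and that fit cannot tell surgery from version. The causes were not tested. No paired analysis was possible for ligated against mock, because there was 1 ligated library and no sample title pairs it with a mock library.

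With only cells with Cd3e, the ligated-over-mock values of Klra4 (0.60), Klra8 (0.27), Klre1 (0.18) and Ccr2 (0.31) turned, as did Trgv2 (0.81), Tcrg-C2 (0.48), Cd160 (0.95) and Trbc1 (0.027) against Cd8b1 T cells, and Gzmb (-0.0921) and Gzma (0.20) against NK or ILC1 cells. With only cells without Cd3e, Ikzf2 (-0.77) and Ccl5 (-0.00922) turned against Cd8b1 T cells, and Ly6c2 (-0.38), Rgs10 (-0.051), Trdc (-0.040), Cd160 (-0.57), Trbc1 (-0.0073), Klra6 (-0.10), Il7r (-0.44), Fcer1g (0.065) and Tyrobp (0.063) against NK or ILC1 cells. Against Cd8b1 T cells, Cd160 ranged between -0.23 and 0.084 with 1 library left out, turning without mock 3. Ccl5 ranged between -0.13 and 0.13, turning without mock 2, and was -0.0269 with no replicate block. Smoc2 turned to -0.21 with doublets removed. Single genes kept direction and side of the threshold in 339 of the ligated-against-mock values under an alternative, 675 of those against Cd8b1 T cells and 517 of those against NK or ILC1 cells, while 36 and 78 of the last 2 sets fell short of the threshold. No ligated-against-mock gene had passed in the main fit, so those 339 values stayed short of the threshold. The other ligated-against-mock values passed under an alternative, save 4 that turned direction. A gene seen in few cells of mock 1 (156 gated cells) is limited by that number.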
